A study of Mus musculus with 5 samples.

Results

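Pdgfra, Kit and Kdr are 3 neighbouring genes on mouse chromosome 5 that encode receptor tyrosine kinases. DNaseI hypersensitive sites (DHSs), which mark chromatin accessible to the nuclease, had been listed at 5 stages of in vitro blood development, and every listed site from 100 kb outside Pdgfra to 100 kb outside Kdr was taken. This stretch is chr5:75051322-76079072 of mm10 (1.03 Mb) and is called the locus here. It held 9 of the 21949 sites of mesoderm (MES), 14 of 24729 in hemangioblasts (HB), 38 of 33305 in hemogenic endothelium (HE), 8 of 17734 in hematopoietic progenitors (HP) and 20 of 37456 in macrophages (MAC). All 5 populations came from 1 strain 129 mouse line of embryonic stem (ES) cells carrying GFP as a reporter for Brachyury (Bry), a mesoderm gene, and were differentiated in culture, with no other genetic change named in the labels. MES cells were sorted as Bry:GFP+ and Flk1-, HB as Bry:GFP+ and Flk1+, HE as Tie2+, cKit+ and CD41-, HP as CD41+, and MAC as CD11b+ cells grown from CD41+ cells. Flk1 is the protein of Kdr and cKit that of Kit, so 2 of the 3 genes served as sorting markers, and what is described here is their chromatin, not their expression. Each stage was 1 list, so no replicate error exists and no test was made. The MAC label names replicates 1 and 2 for that 1 list. The study reports a different number of peaks for MAC than this list holds, and the same numbers for the other stages.

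The 3 receptors share a plan: an extracellular part of immunoglobulin-like domains that binds the ligand, a single pass through the membrane, and a tyrosine kinase that is interrupted by an insert. Ligand binding pairs the receptors, which then phosphorylate each other and recruit adaptors to the Ras, PI3-kinase and phospholipase C routes. PDGFRA, the receptor for platelet-derived growth factors, is known from paraxial mesoderm and mesenchyme. KIT, the receptor for stem cell factor, acts in blood progenitors, mast cells, germ cells and melanocytes, and KDR (FLK1, VEGFR2), the main receptor for VEGF-A, in hemangioblasts and endothelium. The genes stand in the order Pdgfra, Kit, Kdr. Pdgfra and Kit are transcribed in one direction and Kdr in the other, and no other protein-coding gene lies between them. Pdgfra spans chr5:75151322-75198206 (46.9 kb, 23 exons), Kit chr5:75574987-75656722 (81.7 kb, 21 exons) and Kdr chr5:75932827-75979072 (46.2 kb, 30 exons). Between Pdgfra and Kit lie 376.8 kb, and between Kit and Kdr 276.1 kb. The 1 further coding gene of the locus is Gsx2, a homeobox gene of the developing forebrain, on the far side of Pdgfra. RefSeq also places 4 long non-coding RNA genes, 1 microRNA gene (Mir7025, inside Pdgfra), 1 small nuclear RNA gene (Gm24502) and 5 pseudogenes in the locus. One of the non-coding genes, Gm32727, starts inside the 5′ end of Kdr and runs in the opposite direction to it.

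The promoters carry the first finding, and the 250 bases before 4 start sites are therefore shown, 5′ to 3′ on the strand of the gene, from RefSeq (GRCm38.p6). Capitals mark exact matches, on either strand, to the motifs spelled out further on. The main Pdgfra start had no site within 1 kb at any stage, whereas the Pdgfra start in intron 1, the Kit start and the Kdr start did. In order, the stretches are chr5:75152001-75152250 (plus strand), chr5:75155916-75156165 (plus), chr5:75574737-75574986 (plus) and chr5:75978456-75978705 (minus).
Pdgfra main start: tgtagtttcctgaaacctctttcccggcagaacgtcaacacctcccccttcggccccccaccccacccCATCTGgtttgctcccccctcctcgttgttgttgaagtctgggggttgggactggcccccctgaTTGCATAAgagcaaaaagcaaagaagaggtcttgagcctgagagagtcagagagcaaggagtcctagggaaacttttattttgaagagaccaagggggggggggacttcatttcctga
Pdgfra downstream start: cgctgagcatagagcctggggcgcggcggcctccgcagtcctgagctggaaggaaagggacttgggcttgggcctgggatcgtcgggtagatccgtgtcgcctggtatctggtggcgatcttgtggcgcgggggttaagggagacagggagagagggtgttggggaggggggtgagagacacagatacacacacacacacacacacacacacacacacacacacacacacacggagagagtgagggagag
Kit: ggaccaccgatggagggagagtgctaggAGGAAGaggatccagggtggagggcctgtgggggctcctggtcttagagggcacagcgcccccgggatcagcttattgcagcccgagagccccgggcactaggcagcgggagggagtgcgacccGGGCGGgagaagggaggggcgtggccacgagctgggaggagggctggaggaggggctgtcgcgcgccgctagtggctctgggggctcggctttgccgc
Kdr: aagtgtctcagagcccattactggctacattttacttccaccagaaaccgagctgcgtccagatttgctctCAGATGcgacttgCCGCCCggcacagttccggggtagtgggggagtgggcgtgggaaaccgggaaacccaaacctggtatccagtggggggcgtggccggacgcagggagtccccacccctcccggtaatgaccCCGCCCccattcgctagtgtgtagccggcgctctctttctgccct
Of these, the Kit stretch had the highest GC share (70.8%), the Kdr stretch and the downstream Pdgfra stretch had 61.6% each and the main Pdgfra stretch 54.4%. The ratio of observed to expected CpG was 0.216 at the main Pdgfra start, 0.584 at the downstream start, 0.601 at Kit and 0.676 at Kdr. Of these 4 stretches, the one at the start without a site thus had the lowest ratio. Whether CpG and the absence of a site go together was not tested.

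Away from the promoters, 5 stretches are shown because they show the range of open stages: a site upstream of Kit that was listed early, a site in Kit listed in HE, 2 sites between Kit and Kdr listed in HE and HP, and a site in Kdr listed from HB to HP. The central 200 bp of each merged region (defined below) are given on the plus strand of GRCm38, with the same use of capitals.
Upstream of Kit, MES and HB (chr5:75564654-75564853): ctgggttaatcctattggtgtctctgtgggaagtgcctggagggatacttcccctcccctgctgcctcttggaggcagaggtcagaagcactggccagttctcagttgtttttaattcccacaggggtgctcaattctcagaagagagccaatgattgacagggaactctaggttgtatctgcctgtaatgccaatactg
Kit intron 2, HE (chr5:75608026-75608225): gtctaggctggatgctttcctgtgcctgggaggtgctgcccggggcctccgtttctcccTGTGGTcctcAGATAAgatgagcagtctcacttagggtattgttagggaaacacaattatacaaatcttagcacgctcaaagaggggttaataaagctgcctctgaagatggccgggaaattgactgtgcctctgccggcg
Between Kit and Kdr, HE, HP and MAC (chr5:75826470-75826669): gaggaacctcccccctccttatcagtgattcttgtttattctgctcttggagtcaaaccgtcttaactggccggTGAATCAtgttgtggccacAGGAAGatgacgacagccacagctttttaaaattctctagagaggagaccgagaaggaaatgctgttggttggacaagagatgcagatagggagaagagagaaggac
Between Kit and Kdr, HE and HP (chr5:75830293-75830492): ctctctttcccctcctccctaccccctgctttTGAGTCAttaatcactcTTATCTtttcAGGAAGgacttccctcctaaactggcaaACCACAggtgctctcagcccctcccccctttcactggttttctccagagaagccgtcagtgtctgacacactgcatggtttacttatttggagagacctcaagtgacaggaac
Kdr intron 10, HB, HE and HP (chr5:75962397-75962596): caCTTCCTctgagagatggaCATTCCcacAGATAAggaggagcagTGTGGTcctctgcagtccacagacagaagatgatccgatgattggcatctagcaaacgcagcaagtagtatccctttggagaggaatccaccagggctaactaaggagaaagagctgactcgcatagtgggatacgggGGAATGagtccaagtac
The stretch in Kdr intron 10 held ETS, TEAD, GATA and RUNX matches, and the HE and HP stretch between Kit and Kdr held AP1, GATA, ETS and RUNX matches. In the stretch listed in MES and HB alone, none of the 13 motifs occurred within these 200 bp.

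To ask how the amount of listed chromatin at the locus changed along the pathway, the sites of each stage were counted. The locus held most sites in HE. The 9 MES sites had an exact 95% Poisson interval of 4.12 to 17.1, the 14 HB sites 7.65 to 23.5, the 38 HE sites 26.9 to 52.2, the 8 HP sites 3.45 to 15.8 and the 20 MAC sites 12.2 to 30.9. These intervals cover counting error only, and that of HE lay above those of MES, HB and HP and overlapped that of MAC. The summed width of the sites was also largest in HE, at 42.0 kb (equal to 4.09% of the length of the locus), against 7.4 kb in MES, 13.7 kb in HB, 4.5 kb in HP and 11.4 kb in MAC. The HE sum includes the full 1500 bp of a site that reaches into the locus by only 47 bp. Over the genome the HE list covered 1.49%.

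**Figure D1:**
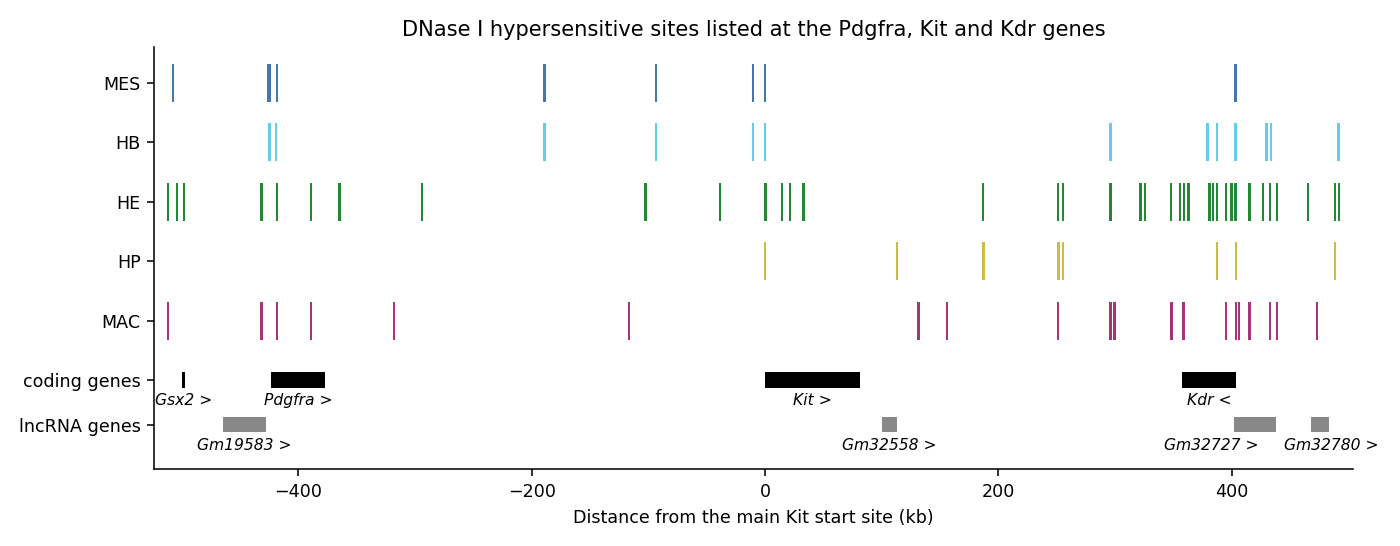
Sites of the 5 lists along the locus, with distance from the main Kit start site in kb on the x axis and 1 row per stage. Each mark is 1 site, drawn at least 2 kb wide, black and grey bars are coding and long non-coding RNA genes, and > or < gives their direction. The HE row holds 38 sites and is densest around Kdr, and the HP row has none to the left of Kit.

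The lists themselves differ in length, so densities were set against those of the whole list. The locus had 8.76 sites per Mb in MES against 8.05 over the genome, 13.6 against 9.07 in HB, 37.0 against 12.2 in HE, 7.78 against 6.51 in HP and 19.5 against 13.7 in MAC. The ratio of the densities was thus 3.03 in HE and between 1.09 and 1.5 at the other stages. When the genome was cut into 2462 stretches as long as the locus, 6.86% of them had at least as many HE sites as the locus. For MES this share was 35.6%, for HB 27.1%, for HP 34.2% and for MAC 32.5%, so in those lists the locus was not unusual. The locus is poor in genes, and many sites of every list lie at promoters. Without the sites within 1 kb of a coding start site, 5 MES, 10 HB, 34 HE, 6 HP and 18 MAC sites were left. Their density was 4.43 times that of the HE list (95% Poisson interval 3.07 to 6.19), and 1.29 times (0.418 to 3.00) in MES, 2.09 times (1.00 to 3.84) in HB, 2.04 times (0.748 to 4.44) in HP and 1.77 times (1.05 to 2.79) in MAC. At least as many such sites were held by 1.46% of the 2462 stretches in HE, by 31.5% in MES, 19% in HB, 21% in HP and 24.9% in MAC. Sequencing depth is not given by the deposited values, and its part in these counts was not tested. With every list cut to its widest 17734 sites, the length of the HP list, the locus held 8 MES, 10 HB, 18 HE, 8 HP and 6 MAC sites. The HE interval (10.7 to 28.4) then overlapped those of MES and HP (both 3.45 to 15.8), HB (4.80 to 18.4) and MAC (2.20 to 13.1), so HE kept the highest count but was no longer apart from the other stages.

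**Figure D2:**
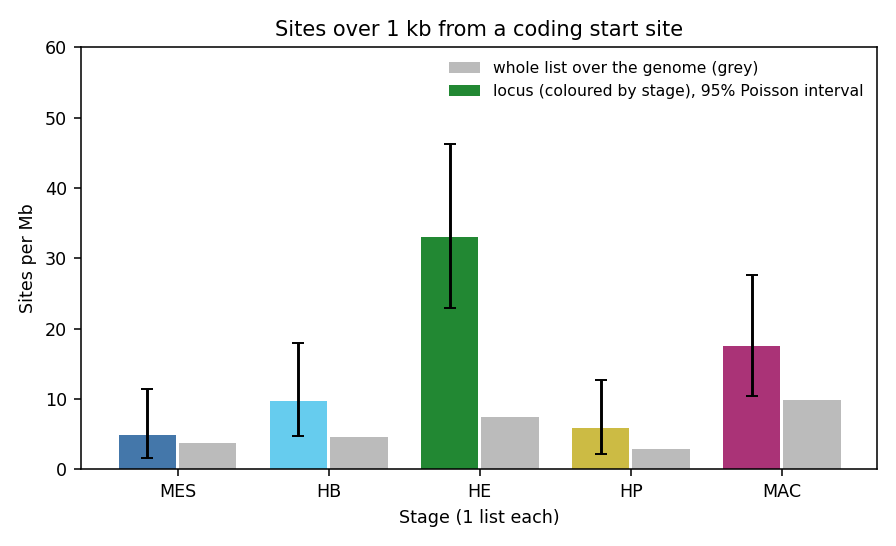
Sites per Mb over 1 kb from a coding start site, in the locus (coloured bars, 95% exact Poisson interval of the count) and over the genome (grey bars), by stage. The HE bar of the locus stands at 33.1 against 7.47 over the genome, the widest gap among the 5 stages.

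The width of the sites, the only other property that the lists hold, did not set the HE sites of the locus apart. From MES to MAC the median widths at the locus were 800, 1000, 1100, 600 and 450 bp, against 800, 900, 1200, 900 and 600 bp in the whole lists. All 8 HP sites of the locus were narrower than the median HP site. The widest MES site (1400 bp) and the widest HB site (1900 bp) lay in intron 1 of Pdgfra, at its downstream start. In HE the Kit and Kdr promoters shared the largest width (1700 bp), and in HP the Kdr promoter and Kdr intron 10 did (800 bp). The widest MAC site (1500 bp, chr5:75922646-75924145) lay between Kit and Kdr, 55.1 kb downstream of the Kdr start.

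The place of the sites along the locus was compared between stages. Beyond the 3′ end of Kit, on the side of Kdr, lay 1 of 9 MES sites (11.1%, 95% Wilson interval 1.99 to 43.5), 8 of 14 HB sites (57.1%, 32.6 to 78.6), 24 of 38 HE sites (63.2%, 47.3 to 76.6), 7 of 8 HP sites (87.5%, 52.9 to 97.8) and 14 of 20 MAC sites (70.0%, 48.1 to 85.5). The MES interval lay below those of HE, HP and MAC and overlapped that of HB, and the intervals of HB, HE, HP and MAC all overlapped. These intervals cover counting error only. The 1 MES site on that side was the Kdr promoter. From the outer flank of Pdgfra up to the start of Kit, 7 MES, 5 HB, 10 HE and 6 MAC sites were listed, and no HP site. In the stretch between Kit and Kdr no MES site was listed, whereas HB had 1, HE 8, HP 4 and MAC 6. One HE site reaches into the locus by only 47 bp at its outer end, and it was counted as a site but not as a region.

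The 3 promoters were listed at different sets of stages. A promoter counted as listed when any start site annotated for the gene had a site no more than 1 kb away. Kdr had one at all 5 stages, as did 42.0% of the 21774 protein-coding genes. Kit had one in MES, HB, HE and HP and none in MAC, a pattern that 3.81% of the genes shared. Pdgfra had one in MES, HB, HE and MAC and none in HP, a pattern shared by 1.74%. Over all coding genes, the share with a promoter site was 55.5%, 57.1%, 59.9%, 48.6% and 48.7% from MES to MAC, so 3 of 3 members in MES, HB and HE and 2 of 3 in HP and in MAC stand beside roughly 1 gene in 2 of the genome. The difference between Kit and Kdr rests on narrow sites. When sites narrower than the median of their list were left out, both were listed in MES, HB and HE alone, and with lists cut to the length of the shortest, both in MES, HB, HE and HP, whereas Pdgfra kept its 4 stages under both rules. Gsx2 had a promoter site in HE alone, 925 bp from its start, 500 bp wide and at percentile 4 of the HE widths.

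At the Kdr promoter a site covered the main start (position 75978455) in every list, and from MES to MAC its width was 800, 1200, 1700, 800 and 300 bp. The site was thus widest in the sorted Tie2+ and cKit+ cells and narrowest in macrophages, where its width was at the 24.9th percentile of the MAC list. At the Kit promoter the site covered the main start (position 75574987) with a width of 1200, 1500, 1700 and 600 bp from MES to HP. In MAC no site was listed within 100 kb of that start: the nearest upstream lay 116.5 kb away and the nearest downstream 131.6 kb away. At both genes the site was widest in bp in HE, then in HB, then in MES, which at Kdr was level with HP (800 bp each). Sites are wider in HE throughout, and by its percentile within each list the Kit site stood at 91.3 in MES, 96.4 in HB, 89.1 in HE and 30.8 in HP, highest in HB, and the Kdr site at 58.4, 78.8, 89.1 and 48.7, highest in HE.

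Pdgfra differed from both in where its site lay. The main start (position 75152251), from which the reference mRNA begins, was 1744 bp from the nearest MES site, 1452 bp from the nearest HB site, 3475 bp from the nearest HE site and 3995 bp from the nearest MAC site. The downstream start (position 75156166), inside intron 1 of the longer transcripts, lay within a site in MES, HB and HE and 80 bp from one in MAC. The width of that site was 1400, 1900, 1600 and 1100 bp in these 4 lists, at percentiles 97.3, 99.5, 82.6 and 94.2 of their widths. A second site, on the upstream side, was listed in MES (chr5:75149708-75150507) and HB (chr5:75149600-75150799), 815 bp and 523 bp from a start that RefSeq only predicts. In HP no site was listed within 100 kb of any Pdgfra start. No site at any stage fell within 1 kb of the third curated Pdgfra start (position 75152936).

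To follow single elements across stages, each site was replaced by a 500 bp window centred on it, and windows that overlapped by at least 25% of their length were merged across the 5 lists. The study used the same window and overlap but centred windows on the summits and also included ES cells, so these regions are not its regions. The locus held 58 merged regions of 68846 in all. Centring the windows split some sites that overlap directly, among them the site at the downstream Pdgfra start, which became a region open in HB and a region open in MES, HE and MAC and so counts below as 1 region at 1 stage and 1 at 3 stages, although intervals of 4 lists overlap there. Of these, 9 were open in MES (15.5%, against 31.9% of all regions), 14 in HB (24.1% against 35.9%), 37 in HE (63.8% against 48.4%), 8 in HP (13.8% against 25.8%) and 20 in MAC (34.5% against 54.4%). These shares have 1 denominator, to which the regions open in HE alone add 20, so the lower shares at the other stages do not stand for fewer sites: as given above, the density of sites was 1.09 to 1.5 times that of the list there. Regions open at 1 stage only numbered 37, and a further 15 were open at 2 stages, 4 at 3, 1 at 4 (the Kit promoter) and 1 at all 5 (the Kdr promoter). Regions open in HE alone were the most frequent kind, at 20 of 58 (34.5%) against 17.1% of all regions, and those open in MAC alone came to 9 (15.5%) against 31.0%. Regions open in HE and MAC and at no other stage came to 7 (12.1%, Wilson interval 5.97 to 22.9) against 3.48%. In each of these 7, the HE site was narrower than 1200 bp or the MAC site narrower than 600 bp. These widths are the medians of those lists, so each of the 7 lost a stage when narrower sites were left out. The other patterns had between 0 and 5 regions each. CpG-rich sequence, defined by a GC share of at least 0.5 and an observed to expected CpG ratio of at least 0.6, was found in 4 of the 58 (6.90%).

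The share of regions kept from one stage to the next was below the genome-wide share at all 4 steps. On the way from MES to HB 6 of 9 were kept (66.7%, 95% Wilson interval 35.4 to 87.9, against 81.5% over the genome), and 8 opened. From HB to HE 5 of 14 were kept (35.7%, 16.3 to 61.2, against 63.7%), and 32 opened. The 5 were the Kit and Kdr promoters, Kdr intron 10, a region 107.1 kb downstream of the Kdr start and a region 88.8 kb upstream of it. The split site at the downstream Pdgfra start is not among these 5 and is counted as closed and opened at the first 2 steps. Compared directly, 7 of 9 MES sites overlapped an HB site (77.8%, 45.3 to 93.7, against 82.9%) and 7 of 14 HB sites overlapped an HE site (50.0%, 26.8 to 73.2, against 69.4%), so at both steps the interval held the genome-wide share. From HE to HP 7 of 37 were kept (18.9%, 9.48 to 34.2, against 42.9%), 30 closed and 1 opened. From HP to MAC 2 of 8 were kept (25.0%, 7.15 to 59.1, against 66.2%) and 18 opened, of which 9 had been open at a stage before HP. The genome-wide shares include many promoters open throughout, of which the locus has few. At the later steps, 8 of 38 HE sites overlapped an HP site (21.1%, 11.1 to 36.3, against 45.5%) and 2 of 8 HP sites a MAC site (25.0%, 7.15 to 59.1, against 67.3%), below the genome-wide share by more than counting error, as with the merged regions. Among deposited intervals, 13 of the 20 MAC sites overlapped an HE site (65.0%, against 41.9% of all MAC sites) and 2 overlapped an HP site (10.0% against 32.1%). In HP, 7 of 8 sites overlapped an HE site (87.5% against 86.0%). The exception was a 300 bp site in Gm32558, 113.2 kb downstream of the Kit start.

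Introns of the 3 genes were listed mainly in HE. Of 11 intronic regions away from promoters, 10 were open in HE, 2 in HB, 1 in HP, 2 in MAC and none in MES. Of the 23773 regions of the genome in introns of coding genes and over 1 kb from a start, 37.5% were open in HE, 15.9% in MES, 20.7% in HB, 13.9% in HP and 53.9% in MAC. Because 7 of the 11 entered through an HE site alone, the same regions raise the HE share (90.9%) and lower the others (18.2% in MAC), and these shares are a description only. In Kdr, 7 of these regions fell in introns 1, 3, 10, 13, 15 and 27, of which intron 15 held a region open in HB and a separate one open in HE. Intron 1 (3.4 kb from the start), intron 13 (19.4 kb), intron 15 (22.4 kb) and intron 27 (40.5 kb) were open in HE alone. Intron 3 (8.0 kb) was open in HE and MAC. Kdr intron 10, shown above, was the 1 intronic region open at 3 stages, with sites of 400 bp in HB, 1600 bp in HE and 800 bp in HP. The last exon of Kdr, in its untranslated part, held an HE site and a MAC site that overlap but whose middles lie apart.

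**Figure D3:**
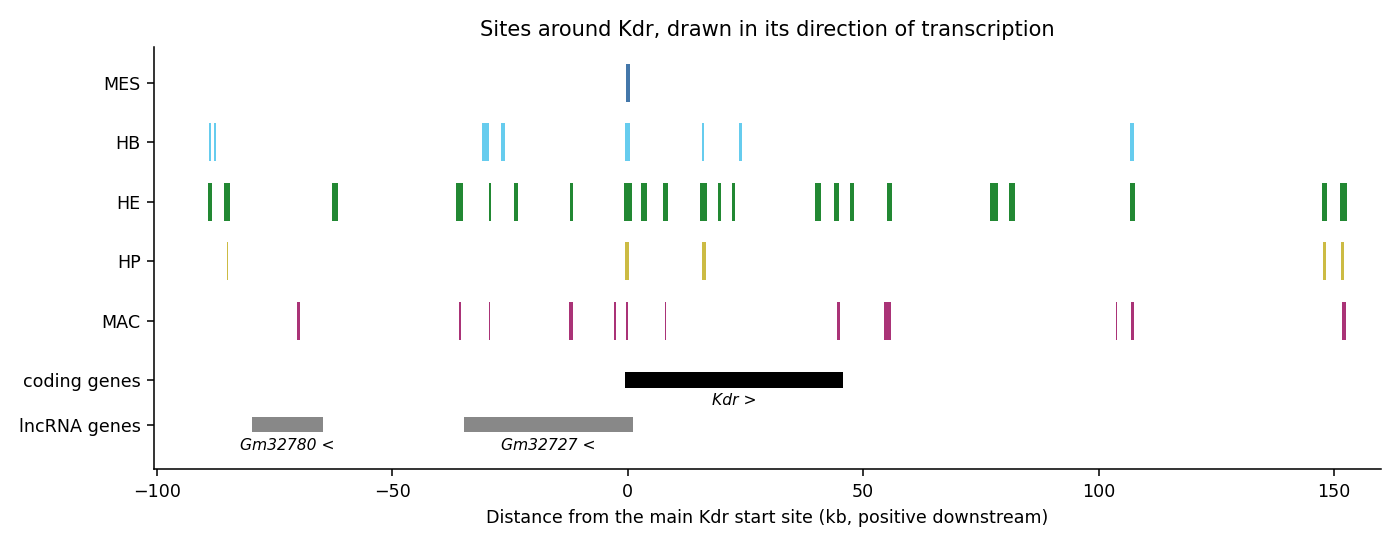
Sites around Kdr with distance from its main start in kb on the x axis, positive in the direction of transcription, and 1 row per stage. Each mark is 1 site, drawn to scale above 0.3 kb, black and grey bars are the coding and long non-coding RNA genes, and > or < gives their direction. MES has only the promoter site at 0 kb, HE has 8 sites inside the gene, and HB, HE and HP share the site at 16.1 kb.

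Kit had 3 intronic regions, all open in HE alone: chr5:75589526-75590025 and chr5:75596326-75596825 in intron 1 (14.8 and 21.6 kb from the start) and chr5:75607876-75608375 in intron 2 (33.1 kb). They are regions of a gene whose protein was used to sort HE cells, and none was listed in HP, where the Kit promoter still had a site. Pdgfra had 1, in intron 17 (33.5 kb from the main start), open in HE and MAC. Within the gene and 20 kb on either side, Kdr had 11 regions open in HE, a number reached by 0.804% of the 21774 coding genes. In MAC it had 6, reached by 10.0%. Kit and Pdgfra had 4 each in HE, reached by 22.9%. Of the 3, Kdr thus stood high among all genes in HE.

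Between the coding genes lay 39 regions, 22 of them open in HE (56.4%, 95% Wilson interval 41.0 to 70.7), 15 in MAC (38.5%, 24.9 to 54.1), 8 in HB (20.5%, 10.8 to 35.5), 5 in MES and 5 in HP (12.8% each, 5.60 to 26.7). Of the 25799 regions of the genome outside coding genes and over 1 kb from a start, 41.3% were open in HE, 50.4% in MAC, 27.2% in HB, 22.2% in MES and 15.6% in HP, so every interval held the genome-wide share. The 9 regions between Pdgfra and Kit fell into an early and a late set that did not meet. Those at 10.3, 93.3 and 189.0 kb upstream of the Kit start were open in MES and HB and at no later stage. The other 6 were open in HE (4) or MAC (2), each at that stage only. Between Kit and Kdr 13 regions were listed, none of them open in MES. Here HE and HP shared regions 187.2 kb downstream of the Kit start and 152.0 and 148.0 kb downstream of the Kdr start, and MAC shared the one at 152.0 kb. A region at 107.1 kb was open in HB, HE and MAC. Beyond the 5′ end of Kdr, 12 regions were listed between 2.7 and 88.8 kb from its start, 7 of them open in HE, 5 in MAC, 4 in HB, 1 in HP and none in MES. Of these 12, 3 were shared by HE and MAC, at 12, 29.3 and 35.7 kb. Of the 7 regions open in HE and MAC alone, 3 lay in Pdgfra or on its outer side and 4 in Kdr or on its outer side, and none lay in or within 100 kb of Kit.

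Other genes of the pathway were taken from 3 lists. Of 7 related receptors, 2, 4, 5, 3 and 4 had a promoter site from MES to MAC, against 55.5%, 57.1%, 59.9%, 48.6% and 48.7% of all coding genes, so with so few genes the counts are read as a description only. Flt3, the receptor for FLT3 ligand, had the stages of Kit (MES to HP), and Nrp1, a co-receptor for VEGF-A, those of Kdr (all 5). Csf1r, the macrophage colony-stimulating factor receptor, had a site in MAC alone, and Pdgfrb, the second PDGF receptor, in HP alone. The VEGF receptors other than Kdr were listed at fewer stages, Flt1 in HB and HE and Flt4, the receptor for VEGF-C and VEGF-D, in HE and MAC, and Nrp2 was listed in HB, HE and MAC.

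Of 10 ligands, 6, 6, 8, 5 and 3 had a promoter site from MES to MAC, beside the same shares of all coding genes, which most of these counts are near. Vegfa, the main ligand of KDR, and Pgf, a ligand of FLT1, had one at all 5 stages, and Kitl, which encodes stem cell factor, had one in MES, HB, HE and HP, the stages of Kit itself. Ligands of PDGFRA differed among themselves: Pdgfa was listed in MES and HB, Pdgfb in MES, HB, HE and MAC, and Pdgfc in HE. Pdgfd, a ligand of PDGFRB, was listed in HE and HP. Vegfb was listed in HB, HE and HP and Vegfc in MES and HE, and Vegfd at no stage. Of 24 signalling genes downstream of these receptors, 20 had a site at all 5 stages, as did Kdr and Nrp1, and as did 42.0% of all coding genes. The 4 exceptions were Gab2, an adaptor (HE, HP and MAC), Mapk3, which encodes ERK1 (MES to HP, as for Kit), Src, a kinase (HE and MAC), and Stat5b, a transcription factor (HE, HP and MAC). Among the genes of the other sorting markers, T (Brachyury) was listed in MES and HB, Tek (Tie2) in HE, Itga2b (CD41) in HE and HP and Itgam (CD11b) in MAC.

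**Figure D4:**
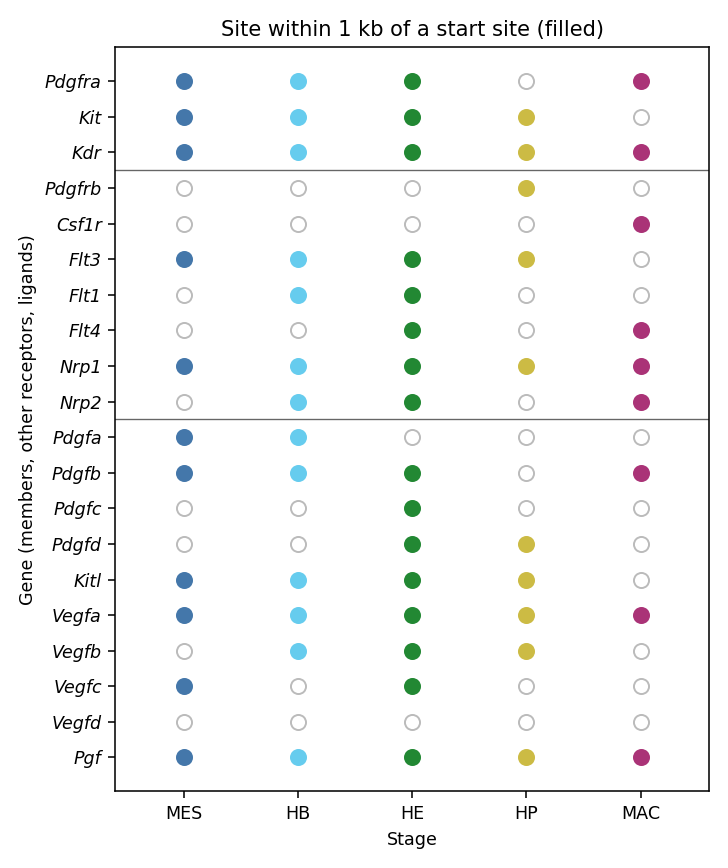
Stages (x axis) at which a site lay within 1 kb of a start site of the 3 genes, of 7 related receptors and of 10 ligands (y axis, from top to bottom), filled where a site was listed. Kit, Flt3 and Kitl have the same 4 filled stages, and Csf1r is filled in MAC only.

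The genes most like each member by the number of regions open per stage, within the gene and 20 kb on either side, were found over the 5 stages. Kit, with 2, 2, 4, 1 and 0 regions from MES to MAC, had 6 genes with identical numbers, of which Pax3, Six3 and Onecut2 are named as the first along the genome. Pdgfra, with 3, 2, 4, 0 and 3, was 1 region away from 6 genes, among them Adamts14, Ism2 and Map3k1. Kdr, with 1, 3, 11, 2 and 6, had no gene that close: Kcnip1 differed by 3 regions, and Pard3b and Mpzl1 by 4.

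Exact matches to 13 motifs were then counted in the middle 500 bp of each region, whichever strand they stood on, and matches of different motifs may overlap. For the factors known from early blood and endothelium, GATA was searched as AGATAA, the bHLH factors as E-box A, spelled CAGCTG, and E-box B, spelled CAGATG, the RUNX factors by the letters TGTGGT, and the ETS factors by AGGAAG. Those read as TEAD were matches to CATTCC, those read as SOX were matches to ACAATG, and AP1 was taken as TGANTCA with N for any base. The remaining motifs were FOX with the letters TGTTTAC, CEBP with the letters TTGCNNAA, the T-box with the letters AGGTGTGA, OCT with the letters ATGCAAAT, and the GC box with the letters GGGCGG. The GATA motif was found in 25 of the 58 regions (43.1%, 95% Wilson interval 31.2 to 55.9), against 23.0% of all regions. Among regions away from promoters it was found in 24 of 52 (46.2%, 33.3 to 59.5) against 27.4%, and among regions open in HE alone in 11 of 20 (55.0%) against 31.0%. GATA was the 1 motif whose interval lay above the genome-wide share, out of 13 looked at. E-box B was found in 46.2% of the 52 regions against 37.3%, ETS in 75.0% against 66.2%, RUNX in 30.8% against 37.3%, TEAD in 23.1% against 29.3% and E-box A in 21.2% against 32.2%, each with an interval that held the genome-wide share, as did those of SOX, AP1, FOX, CEBP, T-box, OCT and the GC box. In the central 200 bp GATA was in 12 of 58 regions (20.7%) against 10.5%, and E-box A in 1 (1.72%, 0.305 to 9.14) against 15.2%. Over all 58 regions and 500 bp, E-box A was found in 11 (19.0%, 10.9 to 30.9) against 30.9%, with an upper bound just under that share. Among the 52 regions away from promoters, E-box A was within counting error of the genome-wide share over 500 bp, as given above, and below it in the central 200 bp, with 1 match (1.92%, 0.340 to 10.1) against 16.2%.

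Within the Kit gene, 2 of the 3 HE regions held GATA, at 21.6 and 33.1 kb, and in the latter a RUNX match stands 4 bases before it in the sequence shown above. Among the Kdr introns GATA was found in intron 10, intron 13, the HB region of intron 15 and intron 27. The region 10.3 kb upstream of Kit, open in MES and HB, also held GATA, outside the 200 bp shown. At the promoters, ETS and the GC box were found before the Kit start and E-box B and 2 GC boxes before the Kdr start, E-box B and CEBP before the main Pdgfra start, whereas the stretch before the downstream Pdgfra start held none of the 13. Of 32851 RefSeq promoters, 32.7% held a GC box in the same 250 bases, 29.5% ETS, 14.4% E-box B and 9.56% CEBP. These are matches of letters and say nothing of whether a factor was bound.

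**Figure D5:**
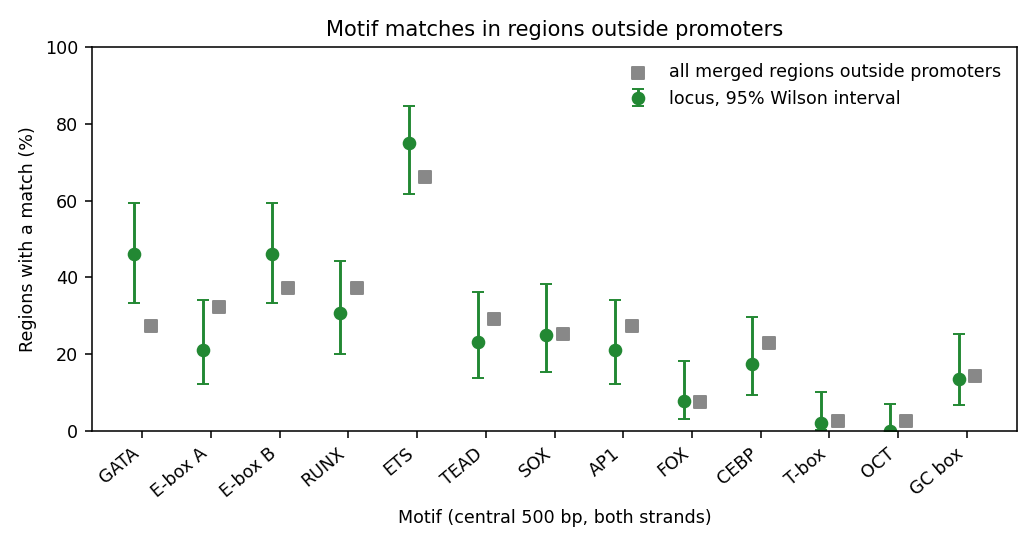
Share of regions over 1 kb from a coding start site with a motif match in the central 500 bp (y axis, %) for 13 motifs (x axis): the 52 regions of the locus (green, 95% Wilson interval) and all such regions (grey squares). GATA, at 46.2% against 27.4%, is the motif whose interval lies clear above the grey square.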

How the data were processed

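DNaseI-seq sites of 5 stages (1 list each) were analysed. The authors used CutAdapt for trimming, Bowtie for alignment (unique reads only), Picard for duplicates and DFilter, with 100 bp bins, for the calls. Tool versions were not stated, and the submitters' processing notes also name HOMER and the build mm10. The deposited values are the start and end of each site in bp, with no signal, score or read count, and the read totals that the authors tabulated for each library were left aside, so an unlisted site is not shown to be closed chromatin. Genes, start sites and sequence came from RefSeq on GRCm38.p6, which shares its primary chromosomes with mm10. All 3 members matched the RefSeq promoter table.

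Sites counted in the locus when they overlapped it, and were assigned to genes and stretches by their middle. The middle also stood in for the summit in windows of 500 bp, merged at an overlap of at least 25%. The background was all merged regions, all coding genes, or stretches of the length of the locus with at most 10% unsequenced bases. Merging was run on 500 simulated regions, all of which were recovered with their stages. These lay far apart, with the middles of their sites close together, so full recovery followed from the setting. Overlapping sites whose middles lie apart, as at the downstream Pdgfra start, were not simulated. Python 3.11.15, numpy 2.4.6, scipy 1.17.1, statsmodels 0.14.6, pysam 0.24.0 and matplotlib 3.10.9 were used.

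Members, gene lists and motifs were chosen with earlier results of these data known. Named were the 3 members and annotated genes of the locus, all listed receptors and ligands, up to 6 signalling genes lacking a promoter site at some stage (in alphabetical order), the 3 genes most like each member, and regions at promoters, in members, open at 4 or 5 stages or holding a stage's widest site, with the others by range and count. Regions named besides these were chosen after their values were seen.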

Additional observations from a re-analysis of the deposited data

How the results depend on the processing

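With 1 list per stage, no replicate could be left out. No paired analysis was possible because each stage has 1 sample. Most counts moved when narrower sites were left out, which keeps fewer sites. With the sites at or above each list's median width, the locus held 5 MES, 8 HB, 18 HE, 0 HP and 7 MAC sites in 28 regions, of which 13 were open in HE only, 5 in MAC only, 6 at 2 or more stages and 3 at 3 or more, and the Kdr promoter had a site at 3 stages (HP and MAC lost), as had the Kit promoter (HP lost). With the widest sites up to the length of the shortest list, 18 HE and 6 MAC sites remained in 33 regions, of which 10 were open in HE only, 4 in MAC only and 10 at 2 or more stages, and the Kdr promoter had a site at 4 stages (MAC lost). Kit and Kdr thus had the same stages under each rule. HE had the most sites under both. A flank of 200 kb raised the regions open in MAC only to 17. The other main counts stayed within 1.5 times their value with a flank of 50 kb, another promoter reach, the deposited intervals merged (55 regions, 18 open in HE only), a required overlap of 250 bp (60 regions, 20 open in HE only) and, an alternative chosen after seeing the data, curated start sites only. Main counts are the sites per stage, the regions of the kinds just named and the stages per member promoter. Some smaller counts moved more. Related receptors with a promoter site in MES fell from 2 to 1 at a reach of 100 bp. Regions open in HB only fell from 5 to 3 with the deposited intervals merged. Read totals were not used here, so how depth limits an absence of a site was not tested.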
